A study of Homo sapiens with 50 samples.

Results

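Between population doubling (PD) 45 and PD50, most short hairpin RNAs (shRNAs) of a chromatin regulator library lost ground in serially passaged IMR90 fibroblasts, while a small number took over a larger share of the culture. The interval was described over the hairpins with at least 10 sequence tags at PD45 or at PD50. These were 3112 of the 3443 hairpins in the table. The screen asked which regulators of chromatin hold back the lifespan of dividing fibroblasts. IMR90 is a line of normal human lung fibroblasts with a finite lifespan in culture. The cells were grown at 3% oxygen, infected with pooled lentiviruses at a multiplicity of infection of 0.3, and passaged as 10 plates, each with a pair of the 5 initial hairpin pools. Genomic DNA was sampled on the way to senescence, and the integrated hairpins were amplified and sequenced.

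The groups compared were PD45 and PD50, 10 plates each, both of infected and still passaged IMR90 cells, 5 doublings apart. They share the cell line, the virus pools, the plates and the oxygen level, and differ in the label by the population doubling alone. The table gave 1 column per population doubling, the authors' value over the 10 plates, so there was no replicate and no test. All cells came from a single line. The table held tags from DNA, so the labelled fibroblast identity, and how far each hairpin lowered its target, were not analysed here.

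Replicative senescence is a lasting arrest that fibroblasts enter after many divisions, held by cell cycle inhibitors such as p16 and accompanied by loss of lamin B1 and wide changes in chromatin. Histones package DNA, and enzymes that write, read or erase marks on them, or that move nucleosomes, set which genes are used. In a pooled screen a hairpin acts as a bar code: its tags follow the descendants of the cells that carry it, whether the hairpin helps them, harms them or does nothing.

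The PD45 column held 8782622 tags and the PD50 column 8479667. The PD55 column was deeper, with 11505688 tags, so a slightly larger raw count there need not be a larger share. Tags were scaled to their share of the column in CPM, and a hairpin's change was log2 of its PD50 CPM plus 1 over its PD45 CPM plus 1. Ratios without the added 1 carry an exact 95% interval for counting error. PCR products carried no molecular identifiers, so the intervals take each tag as an independent count and may be too narrow. The 10 plates share 1 column, so the intervals say nothing of the spread between plates. Each column sums to its own total, so fewer cells with a hairpin and more cells with other hairpins cannot be told apart. The 331 hairpins under the minimum held 1348 tags at PD45 and 272 at PD50, and 45 of them had no tag in either column. Just inside the minimum were 23 hairpins whose higher column held 10 tags, and just outside were 28 at 9 tags. The median at PD50 was 1 tag for the former and 1.5 for the latter.

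Some hairpin names did not behave as separate hairpins. Among 3673 pairs of hairpins against 1 gene with at least 5000 tags together, 7 pairs differed over all 5 columns by less than sampling noise (within the 95% range of an even split of their sum). Among 2737220 pairs against different genes, 125 did. The RET hairpins TRCN0000000405 and TRCN0000010252 held 2620 and 2571 tags at PD45 and 611 and 575 at PD50. DAPK3, CDKN1A, AKT2 and CDY1 also had 1 such pair each. With each pair counted as 1 hairpin, 69 hairpins were over 2-fold higher, as with all hairpins counted, and 2219 were over 2-fold lower.

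Of the 3112 hairpins, 69 (2.22%) were over 2-fold higher at PD50 than at PD45 and 2223 (71.4%) over 2-fold lower, and 820 lay within 2-fold. Any ratio above 1 was seen for 300 hairpins (9.64%). The median hairpin changed by -1.60 on the log2 scale, which is 3.03-fold lower. The middle of the distribution, from the 25th to the 75th percentile, ran from -2.39 to -0.87, and the whole range from -5.56 to 4.94. Counting error, with tags taken as independent, was small beside these differences. The interval lay wholly above 2-fold for 55 of the 69 and wholly below for 2040 of the 2223. No tag at PD50 was found for 121 hairpins (3.89%). Their PD45 counts were low, with a median of 19 tags. The most abundant of them, HIST1H1B TRCN0000106805, had 92 tags at PD45, and with a floor of 3 tags at PD50 it was at least 29.6-fold lower. HIST1H1B encodes a linker histone.

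These counts are relative to the column total, and the total at PD50 was dominated by a few hairpins. TMM, a scaling that sets the bulk of hairpins to no change, moved every log2 ratio without the added 1 CPM up by 1.67. DESeq2 size factors moved these ratios by 1.93. With the added 1 CPM the shift was smaller for scarce hairpins. The median change then went from -1.60 to -0.30 under TMM and to -0.071 with DESeq2 size factors. Under TMM 19.0% of hairpins were over 2-fold higher and 27.6% over 2-fold lower, and with DESeq2 size factors 23.6% and 21.3%. Of the 2812 hairpins with a negative log2 change against the column total, 1009 had a positive one under TMM and 1187 with DESeq2 size factors. Changes of genes and gene groups are therefore given beside the median over all genes.

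The 69 hairpins that gained held 9.06% of all tags at PD45 and 29.8% at PD50. The 2223 that lost held 32.0% and then 9.97%. Those within 2-fold held 58.9% and 60.2%. The gaining hairpins had a median of 2258 tags at PD45, the losing ones 305, and those within 2-fold 1685.5. The 10 hairpins with the largest rise in CPM went together from 117421 to 287000 CPM, which was 53.7% of the summed rise over all hairpins that rose.

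The library narrowed with this shift. With both columns thinned to the same depth, tags were found for 3392 hairpins at PD45 and for 3117 at PD50. The effective number, which is the number of equally common hairpins that would give the same Shannon entropy, was 594 at PD45 and 245 at PD50. The top 109 hairpins held 50% of tags at PD45 and the top 33 at PD50, and the 34 most abundant hairpins held 32.2% and then 50.6% of tags.

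The largest ratio belonged to HIST3H3 TRCN0000074259, a hairpin against a testis-expressed histone H3. It had 201 tags at PD45 and 6189 at PD50, a ratio of 31.9 (95% counting interval 27.7 to 36.9). At PD40 it had 3887 tags, so PD45 was the low column of a series that held 4530 tags at PD55. The same shape at lower depth was seen for HIST1H2BN TRCN0000106677, against an H2B gene, with 663 tags at PD40, 51 at PD45 and 321 at PD50. CEBPB TRCN0000007444, against a transcription factor of the inflammatory secretome of senescent cells, had 426, 50 and 262. For these 3 hairpins PD45 was the lowest of the first 3 columns.

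Other hairpins among the 10 highest ratios gained from an already sizeable PD45 value. TADA3L TRCN0000015733, against an adaptor subunit of histone acetyltransferase complexes (current symbol TADA3), went from 8769 to 65012 tags, a ratio of 7.68 (7.51 to 7.85), and from rank 205 to rank 20. H2AFZ TRCN0000072585, against the histone variant H2A.Z, had 18541 tags at PD45 and 107348 at PD50, a ratio of 6.00 (5.90 to 6.09). MAF TRCN0000000254, against a leucine zipper transcription factor, had 4955 and 23553 tags, a ratio of 4.92 (4.77 to 5.08). EP300 TRCN0000009882, against the acetyltransferase p300, had 11498 and 53944, a ratio of 4.86 (4.76 to 4.96). All 4 had been higher at PD45 than at PD40, and all 4 were higher again at PD55, with 260788, 198884, 37950 and 130397 tags in the order named. At PD60 the MAF hairpin was down to 275 tags, whereas the TADA3L hairpin still had 99188.

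In absolute share the gain was led by NAP1L4 TRCN0000154499, against a nucleosome assembly protein that chaperones histones. It held 138334 tags (15751 CPM) at PD45 and 485834 (57294 CPM) at PD50, a ratio of 3.64 (3.62 to 3.66), and became the most abundant hairpin of the culture. MAF TRCN0000000258 went from 132139 to 338224 tags, a ratio of 2.65, and from rank 6 to rank 3. PHC1 TRCN0000153821, against a Polycomb repressive complex 1 subunit, was first at PD45 with 291409 tags and second at PD50 with 402210. Its ratio was only 1.43, so it grew in share without passing 2-fold.

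Other targets among the 10 largest rises included a methyltransferase, a core histone, a kinase and proteins of DNA maintenance. PRDM9 TRCN0000016807, against the meiotic methyltransferase of histone H3 lysine 4, had 51800 and 180207 tags (ratio 3.60). HIST2H2AB TRCN0000074248, against a histone H2A gene, had 50920 and 174557 (ratio 3.55). TSSK6 TRCN0000037459, against a testis-specific serine kinase that acts on histones, had 58798 and 154128 (ratio 2.71). SMUG1 TRCN0000158275, against a uracil DNA glycosylase, and SMC1B TRCN0000155357, against the meiotic cohesin subunit, had ratios of 1.58 and 1.80, both within 2-fold. From PD50 to PD55 the TSSK6 hairpin went on to 742206 tags and the SMC1B hairpin to 498115, while the PRDM9 hairpin held 137274.

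The steepest loss was that of UTX TRCN0000107761, against the demethylase of histone H3 lysine 27 now named KDM6A. It had 457 tags at PD40, 946 at PD45 and 11 at PD50, which was 83.0-fold lower over the interval (46.2 to 167). DAXX TRCN0000003799, against the chaperone of histone H3.3, went from 1045 to 24 tags, 42.0-fold lower (28.1 to 65.9). PRDM8 TRCN0000016760, against a member of the PR domain family, went from 643 to 17, and CUL4A TRCN0000006531, against a scaffold of ubiquitin ligases, from 1211 to 44. TSPYL5 TRCN0000122858 had the most tags at PD45 among the 10 lowest, 2302, and 91 at PD50. TSPYL5 belongs to the nucleosome assembly protein family.

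The remaining hairpins at this end were rarer at PD45. SAP30L TRCN0000107440, against a relative of a Sin3 deacetylase complex subunit, had 330 tags and then 5. HIST1H3A TRCN0000106985, against a histone H3 gene, had 357 and 7, and CTSL2 TRCN0000003639, against a cathepsin protease, had 548 and 17. PLK1 TRCN0000006248, against a kinase needed for mitosis, had 232 and 3. The added 1 CPM holds back the log2 change of such hairpins, so the order at this end depends on it. None of the hairpins named at this end had over 20 tags at PD55.

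The largest falls in share were those of hairpins near the top of the culture at PD45. EP300 TRCN0000009883, the most abundant hairpin at PD40 with 123277 tags, was second at PD45 with 230115 tags and 13th at PD50 with 120345. Its share went from 26201 to 14192 CPM, 1.85-fold lower (1.83 to 1.86). SMYD5 TRCN0000154724, against a SET and MYND domain protein, went from 73545 to 15694 tags, 4.52-fold lower. IL15 TRCN0000058924, against a cytokine, went from 59017 to 22541, 2.53-fold lower. RB1 TRCN0000010419, against the retinoblastoma protein that restrains entry into S phase, went from 59437 to 28890, 1.99-fold lower. These falls are relative to the column total. Under TMM the EP300 (0.78), RB1 (0.68) and IL15 (0.33) hairpins had positive log2 changes and the SMYD5 hairpin did not (-0.51).

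Hairpins against enzymes of histone methylation and a remodeller also stood among these falls. ASH1L TRCN0000016169, against a histone H3 methyltransferase, went from 92730 to 57189 tags, 1.57-fold lower, after 11845 at PD40. PRMT5 TRCN0000107089, against the main enzyme of symmetric arginine dimethylation, went from 45042 to 21099, 2.06-fold lower. CHD7 TRCN0000016408, against a chromodomain helicase, had 4067 tags at PD40, 25892 at PD45 and 6342 at PD50, 3.94-fold lower. Both the ASH1L and the CHD7 hairpin had thus been higher at PD45 than at PD40 before they were lower at PD50. HIST1H1B TRCN0000106807 went from 62136 to 35414 tags, 1.69-fold lower, while HIST1H1B TRCN0000106809, against the same linker histone, went from 21094 to 62721, a ratio of 3.08. Under TMM the log2 changes were positive for ASH1L TRCN0000016169 (1.02), HIST1H1B TRCN0000106807 (0.91) and PRMT5 TRCN0000107089 (0.62), and stayed negative for the CHD7 hairpin (-0.31).

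The fate of the gaining hairpins outside the interval was mixed. The neighbouring intervals share a column with this one, so their values are set side by side and not as a relation. Of the 69, 24 had been over 2-fold higher at PD45 than at PD40 and 19 over 2-fold lower. Over all 3110 measured hairpins these counts were 196 and 1854. From PD50 to PD55, 12 of the 69 were over 2-fold higher again and 22 over 2-fold lower, with a median of -0.13. Over all 2416 measured, 40 were higher and 1952 lower, with a median of -1.91. The 69 held 3.00% of tags at PD40, 49.7% at PD55 and 31.2% at PD60. Of the 64 of them measured from PD55 to PD60, 50 were over 2-fold lower, as were 1314 of all 1790 measured hairpins. Against PD40, 20 of 68 (29.4%) were over 2-fold higher at PD60, beside 78 of 3108 measured hairpins (2.51%). That span contains the rise by which the 69 were chosen, so a larger share among them was built in and is no result.

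For the losing hairpins the neighbouring columns mostly had the same direction, as they did over all hairpins. Of the 2223, 1556 were over 2-fold lower at PD45 than at PD40, against 48 over 2-fold higher. Over all 3110 measured hairpins these counts were 1854 and 196. Of 1591 losing hairpins with enough tags from PD50 to PD55, 1422 lost over 2-fold and 4 gained over 2-fold. Over all 2416 measured, 1952 lost and 40 gained. At PD60 1076 of the 2223 had no tag, and 7 were over 2-fold higher than at PD40. Of all 3112 hairpins, 1219 had no tag at PD60. The span from PD40 to PD60 contains the loss by which the 2223 were chosen.

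How a hairpin fared went with its earlier abundance. Ranked by PD40 tags, a column the ratio does not contain, the most abundant of 5 equal classes (3269 to 123277 tags) had 27 hairpins over 2-fold higher (4.33%) and 53.0% over 2-fold lower, with a median of -1.08. The middle class (889 to 1600 tags) had 7 higher and 79.3% lower, with a median of -2.02. In the rarest class (up to 451 tags) 13 were higher, 74.2% were lower and 87 had no tag at PD50. The median there was -1.46, nearer to 0 than in the middle class, on a scale that understates the losses of rare hairpins. The most abundant class held 77.6% of PD45 tags and 81.8% of PD50 tags.

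Target genes were described by the mean log2 change over their hairpins, for 613 genes with at least 3 measured hairpins that name only that gene, 2881 hairpins in all. Hairpins against 1 gene share a target and are not replicates of a condition. The median gene had a mean of -1.60, and the genes ranged from -3.67 for UTX to 0.70 for HIST3H2BB. The middle 90% lay between -2.54 and -0.54. The median SD over the hairpins of a gene was 0.98, and the SD among the gene means, each averaged over several hairpins, was 0.62. At least 1 hairpin over 2-fold higher was found for 55 genes (8.97%), and for 53 of these another hairpin was over 2-fold lower. At least 2 hairpins over 2-fold higher were found for 3 genes (0.489%), every hairpin was over 2-fold lower for 161 (26.3%), and none was for 5 (0.816%).

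When the tags of a gene's hairpins were summed, 100 genes had a larger share at PD50 and 18 were over 2-fold higher. In 17 of those 18, a single hairpin held over 80% of the gene's tags at PD50. The other 327 genes with a 2-fold change of the sum were over 2-fold lower.

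The 3 genes with at least 2 gaining hairpins were HIST3H2BB, ACTL6A and MAF. HIST3H2BB encodes a replication-type histone H2B, and its mean was the highest of all genes, 0.70 (SD 1.00 over 4 hairpins). TRCN0000106661 had 658 tags at PD45 and 2084 at PD50, a ratio of 3.28. TRCN0000106660 had 3411 and 6898, a ratio of 2.09, and TRCN0000106664 had 1079 and 1698, a ratio of 1.63. The last, TRCN0000106663, went the other way, from 5921 to 3585 tags. These were hairpins of middling abundance, and all 4 had fewer tags at PD60 than at PD50.

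ACTL6A encodes an actin-related subunit of the SWI/SNF and other remodelling complexes that is used in proliferating progenitor cells. Its TRCN0000072277 had 7757 and 21758 tags, a ratio of 2.91, and the rare TRCN0000072273 had 141 and 315, a ratio of 2.31 (1.89 to 2.84). TRCN0000072275 had 4751 tags at PD45 and 7409 at PD50, then 20739 and 31537, so it was higher in each later column. TRCN0000072276 was lower, from 135 to 22. The gene mean was 0.30 (SD 1.69 over 4 hairpins).

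MAF hairpins split more widely than those of the other 2 genes. Besides TRCN0000000258 and TRCN0000000254, described above, the scarce TRCN0000000257 had 30 tags at PD45 and 69 at PD50, a ratio of 2.38 (1.53 to 3.79). TRCN0000000255 had 154 and 12 tags and TRCN0000000256 had 143 and 8, over 12-fold lower in both. The mean over the 5 hairpins was -0.27.

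Among the other genes with a high mean, H2AFZ (0.39, SD 1.55 over 4 hairpins) owed a mean above 0 to 1 hairpin, TRCN0000072585. With each hairpin left out in turn, and under the other alternatives, the gene stayed at least 1.25 above the median gene. Its TRCN0000072584 and TRCN0000072586 stayed near a ratio of 1, at 1.05 and 0.977, and TRCN0000072583 went from 255 to 113 tags. IKBKE, which encodes an IKK-related kinase of inflammatory signalling, had a mean of 0.05. TRCN0000010034 was its most abundant hairpin, with 81480 tags at PD45 and 141592 at PD50, a ratio of 1.80. TRCN0000010036 had 1107 and 2420, a ratio of 2.26, and then 101 at PD55. The other two were at ratios of 0.985 and 0.162.

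HIST1H1D, RCOR1 and MBD6 were among the 5 genes with no hairpin over 2-fold lower on the log2 scale with the added 1 CPM. HIST1H1D encodes a linker histone, and its 4 hairpins had ratios of 0.860, 1.16, 0.552 and 1.87, a mean of 0.01 with an SD of 0.74. At PD55 its hairpins had 151 to 2277 tags, down from 848 to 15549 at PD50. MBD6, a methyl-CpG-binding domain protein, had 5 hairpins between 0.671 and 1.70, with an SD of 0.51. RCOR1 encodes the CoREST corepressor. Its 3 hairpins were scarce (8 to 406 tags at PD45), and its highest ratio, 3.37, came from 8 and 26 tags with an interval of 1.48 to 8.60. RCOR1 TRCN0000128260 went from 22 to 7 tags, a ratio of 0.330 (0.119 to 0.799). It counted as within 2-fold only because the added 1 CPM brought its log2 change to -0.94.

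Other genes with high means had hairpins on both sides of no change. HIST2H2AB had, besides the hairpin named above, ratios of 0.860, 0.700, 0.911 and, from 12 tags and then 1, 0.0863. HIST1H2AC, another H2A gene, had 1 hairpin from 17537 to 44464 tags (ratio 2.63), ratios of 0.975 and 0.900 in 2 others, and a scarce one at 0.193. SMARCD2, a SWI/SNF subunit, had ratios from 0.175 to 2.65 over 5 hairpins. HMGA1, a high mobility group protein that bends DNA and accumulates in senescent fibroblasts, had 3 of 5 between 1.18 and 1.79 and the other two over 2-fold lower, at 0.447 and 0.327.

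At the other end, all 5 UTX hairpins were over 2-fold lower, and their mean of -3.67 (SD 1.33) was the lowest of the 613 genes. Their PD45 tags were 76, 946, 197, 44 and 463, and their PD50 tags 1, 11, 4, 5 and 25. No UTX hairpin thus exceeded 25 tags at PD50. All but TRCN0000107761 had been lower at PD45 than at PD40, where the 5 held 457 to 680 tags.

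SETD6, a lysine methyltransferase of the RELA subunit of NF-kappaB, had a mean of -3.31 (SD 0.86) from more abundant hairpins. Its 4 hairpins held 5337, 1762, 2753 and 859 tags at PD45 and 1064, 108, 335 and 39 at PD50. For SETD6 TRCN0000121990 the PD45 column was the highest of the series, after 781 tags at PD40. DNMT3B, a de novo DNA methyltransferase, was the most even of the low genes. Its 5 hairpins were 4.91-fold to 10.8-fold lower, with a mean of -2.79 and an SD of 0.36.

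The other lowest genes with at least 3 hairpins below the median of all hairpins include several binders of histones and transcription factors. A pair of nucleosome assembly relatives was among them, TSPYL5 at -3.03 with 5 of 5 hairpins over 2-fold lower and NAP1L3 at -2.89 with 5 of 5. PAXIP1, which joins the H3 lysine 4 methyltransferase complexes and DNA damage signalling, was at -2.85 with 4 of 4. MORF4L2, an MRG family subunit of acetyltransferase complexes, was at -2.81 with 5 of 5. RSF1, the histone-binding subunit of a remodelling complex, was at -2.79 with 3 of 4. The remaining hairpin, TRCN0000128484, went from 4475 to 2418 tags and held most of the gene's tags. TOX4 (-3.00) and PATZ1 (-2.79) had 3 of 3 over 2-fold lower and CREM (-2.93), a cyclic AMP responsive factor, 4 of 4.

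With 161 genes in the same state, a gene whose hairpins were all over 2-fold lower was common (26.3%). Under TMM 4 genes had every hairpin over 2-fold lower, among them MORF4L2, NAP1L5 and TADA2L. TADA2L (current symbol TADA2A), an adaptor of the same acetyltransferase complexes as TADA3L, also met this with DESeq2 size factors. Its 4 measured hairpins held 3850, 61, 22 and 545 tags at PD45 and 405, 1, 0 and 46 at PD50.

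Genes targeted by 10 or more measured hairpins give the fullest view of how hairpins of 1 gene spread. RET, a receptor tyrosine kinase, had 14 of 14 over 2-fold lower, with a mean of -2.45 and single hairpins from -4.02 to -1.01. Counting its near-identical pair once leaves 13. The most abundant, TRCN0000010248, went from 5726 to 954 tags. AKT2, a growth factor kinase, had 12 of 13 over 2-fold lower at a mean of -2.15. CHMP4A, a membrane-scission protein, had 8 of 10 at -2.18.

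PLK1 had 11 of 15 hairpins over 2-fold lower, a mean of -1.89. Its TRCN0000121075 stood apart, with 1148 tags at PD40 and then 5393, 5344 and 5533 at PD45, PD50 and PD55. The other genes with as many hairpins lay nearer to the median gene: PIK3R1, a regulatory subunit of PI3 kinase, at -1.56 with 9 of 10 lower, ATM, the DNA break kinase, at -1.71 with 8 of 10, and PIK3CB at -1.59 with 9 of 12. RPS6KA1 was at -1.49, E2F1 at -1.40, DAPK3 at -1.38 and DIDO1 at -0.97. Of the 12 genes with 10 or more measured hairpins, only DAPK3 had a hairpin over 2-fold higher.

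The non-targeting and lamin B1 controls lay near the middle of the library in this interval. The non-targeting hairpin had 1775 tags at PD45 and 669 at PD50, a change of -1.35, and 59.7% of all hairpins lay below it. Against the column total it was 2.56-fold lower, but its log2 change was 0.31 under TMM and 0.57 with DESeq2 size factors. Lamin B1 (LMNB1), whose loss accelerates senescence, had 5 hairpins with a mean of -1.24 (SD 1.25). The 3 that were over 2-fold lower went from 5757 to 2190, from 1149 to 318 and from 304 to 30 tags. TRCN0000029273 went from 5522 to 4587, and TRCN0000029272 from 12770 to 13478. The latter then had 84423 tags at PD55 and 154785 at PD60, so its large later share was not yet visible at PD50. Under TMM the log2 change was positive for LMNB1 TRCN0000029269 (0.32) and TRCN0000029273 (1.45) too.

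CDKN2A encodes the cell cycle inhibitor p16, and 4 of its 7 hairpins were over 2-fold lower and none over 2-fold higher. Its mean was -1.27 (SD 1.52). TRCN0000010482, among the most abundant hairpins of the culture, had 113657 tags at PD45 and 147187 at PD50, a ratio of 1.34. TRCN0000039751 had 11374 and 20751, a ratio of 1.89 (1.85 to 1.93). The other 5 were 1.94-fold to 9.72-fold lower, among them TRCN0000039752, from 856 to 85 tags. Of these 5, CDKN2A TRCN0000010483 (0.70) and TRCN0000039750 (0.26) had positive log2 changes under TMM. The hairpins of this gene that were already abundant at PD45 thus had ratios above 1 and the scarce ones ratios below 1.

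EP300 and its relative CREBBP, the acetyltransferases p300 and CBP, held 4.51% of tags at PD45 and 3.42% at PD50. EP300 had a mean of -0.86 (SD 1.56 over 8 hairpins), with 1 over 2-fold higher and 3 over 2-fold lower. Its 3 leading hairpins went different ways: TRCN0000009883 was 1.85-fold lower, TRCN0000009884 went from 124367 to 101992 tags, 1.18-fold lower, and TRCN0000009882 was 4.86-fold higher. Under TMM all 3 had positive log2 changes, 0.78 for EP300 TRCN0000009883 and 1.43 for TRCN0000009884. TRCN0000009884 had 291065 tags at PD60. CREBBP had 3 measured hairpins, all over 2-fold lower, with a mean of -2.17. The largest of them, TRCN0000006487, went from 13442 to 4251 tags, and was at 0.056 under TMM.

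Gene groups were described by counts and by the median of their gene means, beside 61 of 2933 single-gene hairpins over 2-fold higher (2.08%), 2103 over 2-fold lower (71.7%) and a median gene of -1.60. The H2A group lay above that median under each scaling. For H2A and its variants 5 of 63 hairpins were higher and 36 lower, the median of 14 genes was -1.20, and their tags went from 2.24% to 5.03% of the column. Most of that rise in share came from H2AFZ TRCN0000072585 (2111.1 to 12659.5 CPM) and HIST2H2AB TRCN0000074248 (5797.8 to 20585.4 CPM). For H2B 4 of 66 were higher and 42 lower, with a median of -1.28, but the difference from the median gene was gone with DESeq2 size factors (-0.04). H2B ran from -2.71 for HIST1H2BD and -2.48 for HIST1H2BB to 0.70 for HIST3H2BB. Histones H3 and H4 had 2 of 105 higher, 69 lower and a median of -1.52. Linker histones had 2 of 47 higher, 30 lower and a median of -1.40, from -2.18 for HIST1H1C to 0.01 for HIST1H1D. Hairpins that name several histone genes were left out of these groups, since their tags cannot be given to 1 gene.

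Histone acetyltransferases other than p300 and CBP had 0 of 90 hairpins over 2-fold higher and 65 lower, with a median of -1.72. They ran from NCOA1, a nuclear receptor coactivator, at -2.66 with 4 of 4 lower to MYST1 (current symbol KAT8), the enzyme of histone H4 lysine 16 acetylation, at -0.38 with 1 of 5. Adaptor and scaffold subunits of the SAGA, ATAC, TIP60 and MRG15 complexes had the lowest median of all groups with several genes, -2.38, with 28 of 34 lower. That group held both MORF4L2 (-2.81) and TADA3L (-0.53, SD 2.30), whose hairpin TRCN0000015733 was the group's only one over 2-fold higher.

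Erasers of acetylation lay on both sides of the median gene, by -0.30 for the zinc-dependent deacetylases and 0.21 for the sirtuins. Each of these differences changed sign in 1 of 10 alternatives. The zinc-dependent deacetylases had 0 of 46 hairpins higher, 34 lower and a median of -1.90. HDAC2 was the lowest at -2.52 with 5 of 5 lower, and HDAC4 the highest at -0.92. HDAC2 TRCN0000004823 went from 2453 to 583 tags over the interval. The sirtuins, the NAD-dependent deacylases, had 1 of 35 higher, 23 lower and a median of -1.39, and their 7 genes were close together, from -1.81 for SIRT5 to -0.97 for SIRT4. Readers with a bromodomain had 1 of 74 higher and 56 lower, from BAZ2A at -2.66 to BRD2 at -0.52.

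Methyltransferases of H3 lysines 4, 36 and 79 and of H4 lysine 20 had counts near those over all hairpins. The group of histone H3 lysine 4 enzymes and menin had 1 of 79 hairpins over 2-fold higher and 57 lower, with a median of -1.68. MEN1, which encodes menin, was at -0.62 (SD 1.30 over 7 hairpins). The list also counts ASH1L, a histone H3 methyltransferase, at -2.48, and which lysine it methylates was not examined. Enzymes of H3 lysine 36, H3 lysine 79 and H4 lysine 20 had 0 of 41 higher, 27 lower and a median of -1.82. SETD2, which trimethylates lysine 36, was at -1.15. Its TRCN0000003033 had 7006 tags at PD45, 7499 at PD50 and then 69351, so its gain came after the interval.

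Repressive methylation showed a low Polycomb group. Polycomb repressive complex 2, which methylates H3 lysine 27, had a median of -2.03 over 8 genes, with 2 of 40 hairpins over 2-fold higher and 30 lower. Its catalytic subunit EZH2 had TRCN0000040073 from 4909 to 10920 tags, a ratio of 2.30, while 5 of the other 6 hairpins were over 2-fold lower. The other higher hairpin, EZH1 TRCN0000002439, rested on 23 and 55 tags. The lowest members were PHF1 (-2.68) and RBBP4 (-2.55), and the highest EZH1 (-0.99) and EED (-1.25). Polycomb repressive complex 1 had 1 of 89 higher and 68 lower, with a median of -1.72, and its share of tags, 5.67% at PD45 and 6.48% at PD50, was mostly the PHC1 hairpin. The H3 lysine 9 and HP1 group had a median of -1.54, with EHMT1, a dimethyltransferase, at -2.74 and CBX3, an HP1 protein, at -0.92.

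Demethylases and arginine methyltransferases were low as groups. Of 83 hairpins against lysine demethylases 1 was over 2-fold higher and 63 lower, and the median of 18 genes was -2.03. The lowest after UTX was PHF2 at -2.57, and the highest were AOF2 (-0.84, current symbol KDM1A), the first known lysine demethylase, and JMJD2A (-0.94, current symbol KDM4A). Arginine methyltransferases had 30 of 36 hairpins lower, 1 higher and a median of -2.10, with PRMT8 at -2.33 and PRMT6 at -1.41. The 1 higher hairpin was CARM1 TRCN0000007168, from 12484 to 25010 tags. In both groups the difference from the median gene kept its sign under the 3 other scalings.

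Remodelling complexes differed in how many hairpins gained. SWI/SNF had 5 of 58 hairpins over 2-fold higher and 36 lower, with a median of -1.49. Besides the 2 of ACTL6A and the 1 of SMARCD2, these were SMARCB1 TRCN0000039587, from 1048 to 2824 tags after 7338 at PD40, and SMARCA2 TRCN0000020332, from 18262 to 50244. SMARCB1 is a core subunit and SMARCA2 one of the alternative ATPases. The other ATPase, SMARCA4, had 3 of 3 lower at -2.59. CHD helicases and the NuRD complex had 0 of 63 higher and 52 lower, with a median of -1.90 and a share that went from 0.985% to 0.370% of tags. ISWI, INO80, SRCAP and HELLS had 1 of 62 higher, 47 lower and a median of -1.76.

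Histone chaperones had 1 of 88 hairpins over 2-fold higher and 61 lower, with a median of -1.53. Their share of tags nevertheless went from 3.04% to 6.66%, because the NAP1L4 hairpin TRCN0000154499 alone held 57294 CPM at PD50. DNA methylation genes had 0 of 63 higher, 46 lower and a median of -1.75, between DNMT3B at -2.79 and MBD6 at -0.11. Structural maintenance proteins, cohesin and CTCF had 1 of 51 higher and 40 lower. The 1 higher hairpin was RAD21 TRCN0000147898, from 164 to 349 tags, against a cohesin ring subunit.

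The list of histone kinases had the highest share of gaining hairpins of all groups, 4 of 36 (11.1%), with 19 lower. The share was 9.09% for p300 and CBP and 8.62% for SWI/SNF. Those 4 kinase hairpins targeted TSSK6, IKBKE, DAPK3 and STK4, 1 each. IKBKE, named above as a kinase of inflammatory signalling, is also counted in the NF-kappaB group. Whether it acts on histones was not examined. STK4 TRCN0000001623, against the apoptosis-linked kinase MST1, had 612 tags at PD40, 7128 at PD45 and 24059 at PD50, then 36036 at PD55 but 263 at PD60. All 7 genes of the group lay above the median gene, with a median of -1.29. Transglutaminases and an arginine deiminase, enzymes that modify histone side chains in other ways, had the highest median of all groups, -0.66 over 3 genes, with 1 of 15 hairpins higher and 7 lower. The higher one was PADI4 TRCN0000051678, from 10063 to 21466 tags and then 136991 at PD55.

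Signalling groups lay near the median gene. PI3 kinase subunits had 1 of 52 hairpins over 2-fold higher, 40 lower and a median of -1.64. The higher one was PIK3CA TRCN0000082626, from 15142 to 49572 tags, a ratio of 3.39, then 30269 at PD55 and 126196 at PD60, while 5 of 8 PIK3CA hairpins were lower. AKT, mTOR and S6 kinases had 0 of 63 higher, 46 lower and a median of -1.46. The NF-kappaB group had 1 of 44 higher, 30 lower and a median of -1.33. Within it IKBKE (0.05) stood at the top, and the subunits of the canonical kinase, IKBKG (-2.07) and IKBKB (-1.84), at the bottom with 5 of 5 lower each.

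The lists of damage signalling and repair, replication, and cell cycle brakes do not hold every gene of these processes in the library. None of their hairpins was over 2-fold higher, beside 2.08% of all single-gene hairpins. Lists of 57, 38 and 50 hairpins hold few at that share, so the absence is no result about these processes. Damage signalling and repair had 44 of 57 hairpins lower and a median of -1.70, with PARP2 at -2.50 and DDB1 at -0.79. Replication and mitosis genes had 27 of 38 lower and a median of -1.44, with PCNA, the replication clamp, at -2.10 with 5 of 5 lower. The list of cell cycle brakes with lamin B1 also holds E2F3, which is not itself a brake. It had 30 of 50 hairpins lower and a median of -1.32, from E2F3 at -2.05 to CDKN1A, the inhibitor p21, at -0.72. Only 1 of 7 CDKN1A hairpins was over 2-fold lower, and its near-identical pair went from 1069 and 1060 to 612 and 568 tags.

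Among DNA-binding families, high mobility group proteins had 3 of 54 hairpins over 2-fold higher, 39 lower and a median of -1.32, from HMGA2 at -1.96 to HMGA1 at -0.21. The PRDM family had 1 of 55 higher, 40 lower and a median of -1.63, close to the median gene. The ING family, readers of H3 lysine 4 methylation, had 0 of 20 higher and 16 lower, with a median of -1.77. The ADAR enzymes, which edit RNA, had 0 of 14 higher and 12 lower, with a median of -1.76. The sign of the difference from the median gene changed under TMM for the PRDM, ADAR, PI3 kinase, repair, replication and chaperone groups.

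Of the other gaining hairpins against 1 gene, several targeted transcription factors and a kinase upstream of growth control. GATA3 TRCN0000019301, against a zinc finger factor, had 5314 tags at PD40, 37941 at PD45 and 80265 at PD50, a ratio of 2.19. STK11 TRCN0000000410, against the kinase LKB1, had 5988 and 23281 tags, a ratio of 4.03. TRIM24 TRCN0000021259, against a bromodomain cofactor, had 6392 and 19746, a ratio of 3.20. HIST1H2AH TRCN0000106761 had 8668 and 26275, then 114664 at PD55 and 164932 at PD60. IL12A TRCN0000058775, against a cytokine subunit, had 18362 and 47871, then 221161 at PD55. These were chosen after their values were seen. Among the scarcest, SOX12 TRCN0000019023 rested on 2 tags at PD45 and 25 at PD50.

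Of the 178 measured hairpins that name several genes, 8 were over 2-fold higher and 119 lower, with a median of -1.36. Most of the 8 named clusters of histone genes or other gene families. TRCN0000106731, which names HIST1H2AL and HIST1H2AI, went from 4348 to 17976 tags, a ratio of 4.28. TRCN0000127914, which names CDY2A, CDY2B, CDY1 and CDY1B, testis chromodomain proteins, went from 6557 to 23750, a ratio of 3.75.

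Set beside its neighbours, the interval had a smaller share of gains than the one before and a smaller share of losses than the one after. From PD40 to PD45, 196 of 3420 hairpins were over 2-fold higher (5.73%) and 63.2% over 2-fold lower, with a median of -1.63. From PD50 to PD55, 41 of 2417 were over 2-fold higher (1.70%) and 80.8% over 2-fold lower, with a median of -1.91. Genes with at least 2 gaining hairpins numbered 25 of 631, 3 of 613 and 0 of 487 in the 3 intervals in order, and genes with every hairpin lower 82, 161 and 222. The share of tags held by the gaining hairpins went from 10.8% to 35.3% in the first interval, from 9.06% to 29.8% in this one, and from 17.3% to 47.3% in the next. The spread of the log2 change over hairpins was 1.66, 1.16 and 1.12 (SD). Each interval had its own set of measured hairpins, and neighbouring ones share a column, so these counts were not tested against each other.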

How the data were processed

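Genomic DNA of 50 samples, 10 plates at each of 5 population doublings, was sequenced for integrated hairpins. Counts are sequence tags for each hairpin, as the authors deposited them in a table with a single column for each population doubling. The submitters' processing notes name Bowtie 1.0.1. Settings, and the way the 10 plates were joined, were not given in the sources used here.

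Columns were scaled by their totals to CPM. Hairpins with at least 10 tags at PD45 or PD50 were kept, and the log2 ratio used a pseudocount of 1 CPM. A gain or loss was a change over 2-fold. Ratios carry exact conditional binomial 95% intervals, and a count of 0 was bounded with 3 tags. Gene values are means over at least 3 hairpins naming 1 gene. With no replicates there was no test between the columns. Gene lists were 36. Near-identical hairpins were found by a chi-square of an even split. Names were kept as in the table: 530 of 644 match current RefSeq symbols (assembly GRCh38.p14) and 106 an older name of 1 gene. Diversity was computed after thinning to 8479667 tags.

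The members, the gene lists and the rule for named genes were chosen with earlier results of these data known. The rule took the control targets, EP300, CREBBP and CDKN2A, then the 10 hairpins at each end by log2 ratio and by change in CPM. It also took the 12 genes at each end with at least 3 hairpins on the same side of the median hairpin, genes with at least 2 gaining hairpins, and 2 members at each end of a list. Genes outside it were named after their values were seen. Some hairpins and genes that the rule took are not reported here. Alternatives covered scaling (TMM from edgeR 4.0.16, DESeq2 1.42.0 size factors, totals without the 50 most abundant hairpins), pseudocounts, tag minimums, fold thresholds, gene and list summaries and left-out hairpins. Counting near-identical pairs once was added after the data were seen. Calculations used Python 3.11.15, numpy 2.4.6, pandas 2.3.3, scipy 1.17.1 and R 4.3.3, and were tested on simulated data.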

Additional observations from a re-analysis of the deposited data

How the results depend on the processing

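Results are relative to the column total, and scaling changed them most. Over the same 3112 hairpins, TMM gave 590 over 2-fold higher and 859 lower with a median of -0.30, DESeq2 size factors 733 and 663 with -0.071, and totals without the 50 most abundant hairpins 158 higher, 1767 lower (not over 1.5 times from the reported count) and -1.18. Genes with at least 2 gaining hairpins then numbered 131, 187 and 13, and genes with every hairpin lower 4, 2 and 73. A fold of 1.5 gave 136 hairpins higher, and a fold of 4 gave 12 higher and 1127 lower. A pseudocount of 10 gave 1406 lower, a median of -0.89 and 25 genes with every hairpin lower, and a pseudocount of 0.5 a median of -1.80. A minimum of 1 tag gave a median of -1.47 and 102 genes with every hairpin lower. Including hairpins that name several genes gave 8 genes with at least 2 gaining hairpins. The effective number of hairpins at PD45 was 594 without thinning.

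Of 2812 hairpins below 0, 1009 turned above 0 under TMM. Among the hairpins at either end and those of control targets, EP300 and CREBBP that were over 2-fold lower, the direction turned for the non-targeting hairpin (0.31 under TMM, 0.57 with DESeq2 size factors), LMNB1 TRCN0000029269 (0.32, 0.59), IL15 TRCN0000058924 (0.33, 0.60) and PRMT5 TRCN0000107089 (0.62, 0.89), CDKN2A TRCN0000039750 (0.26, 0.52) and CREBBP TRCN0000006487 (0.056, 0.32), and for LMNB1 TRCN0000029270 with DESeq2 size factors alone (0.13). RSF1 was 0.11 above the median gene by summed tags, since 1 hairpin held most of them. Relative to the median gene, 1644 of the gene values recomputed under the alternatives stayed within the SD over hairpins and 36 did not. For lists, 335 stayed within the SD over genes and 5 did not. Another hairpin turned too (0.35, 0.62). No paired analysis was possible because the plates share 1 column. Depth limits rare hairpins: of the 121 without a tag at PD50, none had over 92 at PD45.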
